A study of Mus musculus with 10 samples.

Results

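Immune checkpoint genes were followed in mouse tumours grown on an arginine-deficient or a normal diet. The genes were 10, chosen by name: the inhibitory receptors Pdcd1 (PD-1), Ctla4, Lag3, Havcr2 (TIM-3) and Tigit, the PD-1 ligands Cd274 (PD-L1) and Pdcd1lg2 (PD-L2), the checkpoint gene Vsir (VISTA), the transcription factor Tox and the ectoenzyme Entpd1 (CD39). They were found by symbol among the 21849 genes of the count table, 1 row each. Of these 10 genes 9 had enough reads to be tested, and Vsir was at 0 in every library. RNA came from 10 tumours that CT26 cells, a mouse colon carcinoma line, formed under the skin of BALB/c mice. The mice, aged 5 weeks when feeding began, were assigned at random by body weight to a normal diet or to an arginine-deficient diet of equal calories, begun 1 week before the cells were injected. The labels do not say whether the diets went on until the tumours were taken. Tumours were taken on day 20 after implantation, 5 from each diet. No genotype or drug differed between the diets, and unsorted tumour tissue was sequenced, so CT26 cells, immune cells and stroma were measured together.

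Checkpoint receptors restrain T cells that meet their antigen. PD-1 on the T cell binds PD-L1, which tumour cells and myeloid cells make under interferon gamma, or PD-L2, which is mostly a product of macrophages and dendritic cells. CTLA-4 competes with the activating receptor CD28 for CD80 and CD86, LAG-3 binds MHC class II, TIGIT binds the poliovirus receptor, and TIM-3 is carried by exhausted T cells and by many myeloid cells. TOX drives the exhausted state of T cells that are stimulated for a long time, and CD39 starts the breakdown of extracellular ATP to adenosine.

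Total counts per library lay between 12013178 and 31530123, with 12929 genes tested. Arginine-deficient replicate 3 had the most mitochondrial counts, 9.97% against 1.67% to 4.44% elsewhere, and, with arginine-deficient replicate 4 and normal-diet replicate 4, the most skeletal muscle transcripts. Normal-diet replicate 5 had the smallest total and the lowest T cell marker level. That level was the mean log2 CPM (counts scaled to library size with TMM factors) of 9 T cell genes, among them Cd3d, Cd3e, Cd3g and Cd247. It was 0.87 there and 1.44 in replicate 4 of the same diet, against 1.82 to 2.47 in the other libraries. Epithelial keratin and adhesion genes, the defining markers of a carcinoma, had a mean log2 CPM of 2.26 ± 0.46 on the deficient and 2.17 ± 0.35 on the normal diet (SD, n = 5 each), over 5 tested genes. Over the 10 libraries Krt20 averaged 205 CPM and Krt18 13.3 CPM, but Cdh1 2.49, Krt8 0.889 and Krt19 0.424 CPM. Epcam of that list had too few reads to be tested. Cd3d, Cd3e and Cd3g together gave 4.79 to 22.9 CPM, so T cell RNA was present in every tumour at a low level. In such bulk RNA, fewer cells of a type and less RNA per cell cannot be told apart.

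On the mm10 build Cd274 (ENSMUSG00000016496.7) spans positions 29367455 to 29388095 of chromosome 19, and Pdcd1lg2 (ENSMUSG00000016498.10) follows it on the same strand at 29410919 to 29471161. Entpd1 (ENSMUSG00000048120.16) lies farther along chromosome 19, at 40612366 to 40741602. Ctla4 (ENSMUSG00000026011.13) is at 60887000 to 60915832 and Pdcd1 (ENSMUSG00000026285.7) at 94038305 to 94052553 of chromosome 1. Lag3 (ENSMUSG00000030124.2) is at 124904361 to 124911705 of chromosome 6, Havcr2 (ENSMUSG00000020399.14) at 46454935 to 46481255 of chromosome 11 and Tigit (ENSMUSG00000071552.5) at 43648867 to 43664146 of chromosome 16. Tox (ENSMUSG00000041272.11) is at 6686353 to 6991557 of chromosome 4 and Vsir (ENSMUSG00000020101.14) at 60346851 to 60372684 of chromosome 10. All are protein-coding, and these are gene bodies with exons and introns. Of the exonic bases of Cd274 14.1% also lie in exons of an antisense transcript, AC119228.1, as do 3.42% of those of Tox in Gm11802. Of the exonic bases of Pdcd1lg2 32.9% lie inside the body of A930007I19Rik, though in none of its exons. The sources used here do not say whether counting used the strand, so reads of these genes and of an antisense partner may not be separable.

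The stretches before the start sites of both PD-1 ligands, PD-1 and Ctla4 are shown because these genes carry the main contrast below. They come from RefSeq on GRCm38.p6, the assembly behind mm10, and each ends 1 base before the RefSeq start. RefSeq entries were found for 8 of the 10 genes, all but Lag3 and Tox. For Cd274 only the last 47 bases are given, since most of the bases farther up lie in exons of Plgrkt. The regions are chr19:29367391-29367437 (plus strand) for Cd274, chr19:29410669-29410918 (plus strand) for Pdcd1lg2, chr1:94052554-94052803 (minus strand) for Pdcd1 and chr1:60908775-60909024 (plus strand) for Ctla4. Capitals mark GGAAA or its reverse complement, the core bound by NFAT, a factor switched on by the T cell receptor.
Cd274: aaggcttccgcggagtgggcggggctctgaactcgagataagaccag
Pdcd1lg2: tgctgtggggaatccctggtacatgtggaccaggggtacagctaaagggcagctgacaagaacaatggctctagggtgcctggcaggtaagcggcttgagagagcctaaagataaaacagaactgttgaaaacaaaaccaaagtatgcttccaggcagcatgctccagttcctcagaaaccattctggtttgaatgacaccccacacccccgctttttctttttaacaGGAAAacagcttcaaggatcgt
Pdcd1: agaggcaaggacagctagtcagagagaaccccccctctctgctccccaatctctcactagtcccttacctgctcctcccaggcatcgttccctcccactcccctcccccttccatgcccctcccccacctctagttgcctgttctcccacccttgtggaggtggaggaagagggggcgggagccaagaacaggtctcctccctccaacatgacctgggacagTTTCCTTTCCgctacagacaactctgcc
Ctla4: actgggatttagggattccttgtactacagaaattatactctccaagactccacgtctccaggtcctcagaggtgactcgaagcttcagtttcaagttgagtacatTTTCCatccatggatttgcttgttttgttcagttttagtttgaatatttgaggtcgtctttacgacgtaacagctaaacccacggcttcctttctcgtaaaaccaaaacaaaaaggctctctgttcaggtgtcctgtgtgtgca

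GGAAA was found on either strand in 6 of the 9 windows of 250 bases that RefSeq gives for these genes (Entpd1 has a pair of starts), and in 55.6% of all 32851 such windows. The stretch before Pdcd1 holds it as 2 adjoining copies, 28 to 19 bases before the start. Of 5 other motifs, each read on both strands, all but AP-1 were in none of the 9 windows. These were the interferon gamma site TTCNNNGAA (in 7.02% of all windows), the interferon regulatory factor site, a pair of GAAA with 2 bases between (2.98%), the ATF4 site TGATGNAA (3.45%) and the E-box CACGTG (6.02%). The AP-1 site TGANTCA was in 1 of the 9, that of Havcr2, and in 6.75% of all windows. These are matches of letters in a short window, and no binding was measured.

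The comparison of the diets asked whether checkpoint genes differ in tumours of mice short of dietary arginine. None of the 9 tested genes passed over all genes (edgeR quasi-likelihood test, adjusted p under 0.05), in a table where 7 genes, 0.0541% of those tested, passed. At an unadjusted p under 0.05 there were 2 of the 9, Pdcd1lg2 and Ctla4, both higher on the deficient diet, where 6.74% of all tested genes reached that level, 3.54% as higher and 3.19% as lower. The unadjusted p of Ctla4 was above 0.05 without arginine-deficient replicate 1 or 2, with the muscle-rich libraries left aside, and by limma voom. Of the 9 genes 5 were higher and 4 lower, with a median log2 fold change of 0.01. Over all tested genes 50.3% were higher and the median was 0.00. The 3 most positive values were those of the PD-1 ligands and Ctla4.

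Pdcd1lg2, the PD-L2 gene, was scarce in every tumour. On the normal diet replicates 1 to 5 had 18, 19, 15, 19 and 2 counts, which is 0.971, 0.889, 0.639, 0.971 and 0.168 CPM. On the deficient diet they had 60, 61, 49, 26 and 30 counts, or 1.90, 3.65, 1.78, 1.12 and 2.16 CPM. Every deficient-diet tumour lay above every normal-diet tumour, and arginine-deficient replicate 4 came closest to the normal diet. The diets separated in either direction in 1.65% of all tested genes, with the deficient diet above in 0.835%, and in no other gene of the 9. The means were 2.13 ± 0.937 and 0.728 ± 0.341 CPM (SD, n = 5 each), a log2 fold change of 1.49 (± 0.41 SE, 95% interval 0.60 to 2.39), higher than 99.3% of tested genes. It did not pass over all genes (edgeR adjusted p = 0.362), but DESeq2 gave an adjusted p of 0.0467 and limma voom with sample weights one of 0.0461. In these fits 130 and 373 genes passed. By edgeR under other settings the log2 fold change ran from 1.21, without arginine-deficient replicate 2, to 2.38, with the level of IL-4-type macrophage markers as a term, and the next highest was 1.89, with the 3 muscle-rich libraries left aside.

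PD-L2 is known from macrophages exposed to IL-4, and the summed level of markers of those cells separated the diets too. The 8 tested of 10 such genes (Mrc1, Mgl2, Clec10a, Arg1, Ccl8, F13a1, Cd163 and Folr2) all had higher means on the deficient diet (median log2 value 0.73). None of the 8 passed over all genes by edgeR, and 6 had an unadjusted p under 0.05. Summed over the list of 10 they gave 763 to 1071 CPM on the deficient and 480 to 645 CPM on the normal diet. Their mean log2 CPM was 5.61 ± 0.10 against 4.90 ± 0.35 (SD, n = 5 each; exact two-sided permutation p = 0.00794, the smallest this design allows, Benjamini-Hochberg adjusted p = 0.103 over 13 marker lists). That list and this test were chosen with earlier results of these data known, so the p-value is not independent support. Retnla and Chil3 of that list had too few reads to be tested. With this level as a term, a fit chosen after seeing the data, the Pdcd1lg2 log2 fold change was 2.38 (SE 0.91, edgeR adjusted p = 0.302). The level and the diet do not overlap in these tumours, so their parts in the Pdcd1lg2 difference cannot be told apart. Among normal-diet tumours replicate 5 had the highest IL-4-type level (5.386) but the lowest Pdcd1lg2 (0.168 CPM). Among deficient-diet tumours replicate 4 had the lowest level (5.497) and also the lowest Pdcd1lg2 (1.12 CPM). Whether Pdcd1lg2 followed this level inside either diet was not tested separately. General macrophage markers, among them Adgre1, Csf1r and Cd68, had nearly the same level on both diets (7.35 ± 0.08 and 7.32 ± 0.18, mean log2 CPM ± SD, n = 5 each; exact two-sided permutation p = 0.857, adjusted p = 0.913). Per 100 CPM of those 10 macrophage markers, Pdcd1lg2 had 0.0797 ± 0.0281 CPM on the deficient diet against 0.0292 ± 0.0147 CPM, ranges that did not overlap (0.0488 to 0.126 and 0.00613 to 0.0459). With the macrophage level as a term in the edgeR fit, its log2 fold change was 1.49 (SE 0.44, edgeR adjusted p = 0.462), and with the T cell level 1.38 (SE 0.41, edgeR adjusted p = 0.385). None of the 9 genes passed in these fits, where 0.0464% of tested genes passed with the macrophage and 0.0928% with the T cell level.

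Cd274, the PD-L1 gene, varied more between tumours of the deficient diet than between those of the normal diet. Normal-diet replicates 1 to 5 had 44.7, 57.6, 39.8, 46.2 and 45.1 CPM. Deficient-diet replicates 1 to 5 had 49.9, 108.7, 84.5, 33.8 and 60.9 CPM. Arginine-deficient replicates 2, 3 and 5 lay above the whole normal diet and replicate 4 below it. The coefficient of variation was 43.7% on the deficient and 14.1% on the normal diet, a difference that was not tested, and the means were 67.5 ± 29.5 and 46.7 ± 6.56 CPM (SD, n = 5 each). The log2 fold change was 0.53 (SE 0.26, 95% interval -0.03 to 1.10, edgeR adjusted p = 0.766). It was 0.29 without arginine-deficient replicate 2, the library with the highest Cd274 and the highest Pdcd1lg2, and was 0.70 without replicate 4. The genes whose levels most resembled Cd274 within diets were Gbp2b, a GTPase induced by interferon (r = 0.96), Bdnf (r = 0.94) and Eda2r (r = 0.93). These values are over 10 libraries and were picked as the highest among 11475 genes, and all share library depth and RNA quality.

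**Figure D1:**
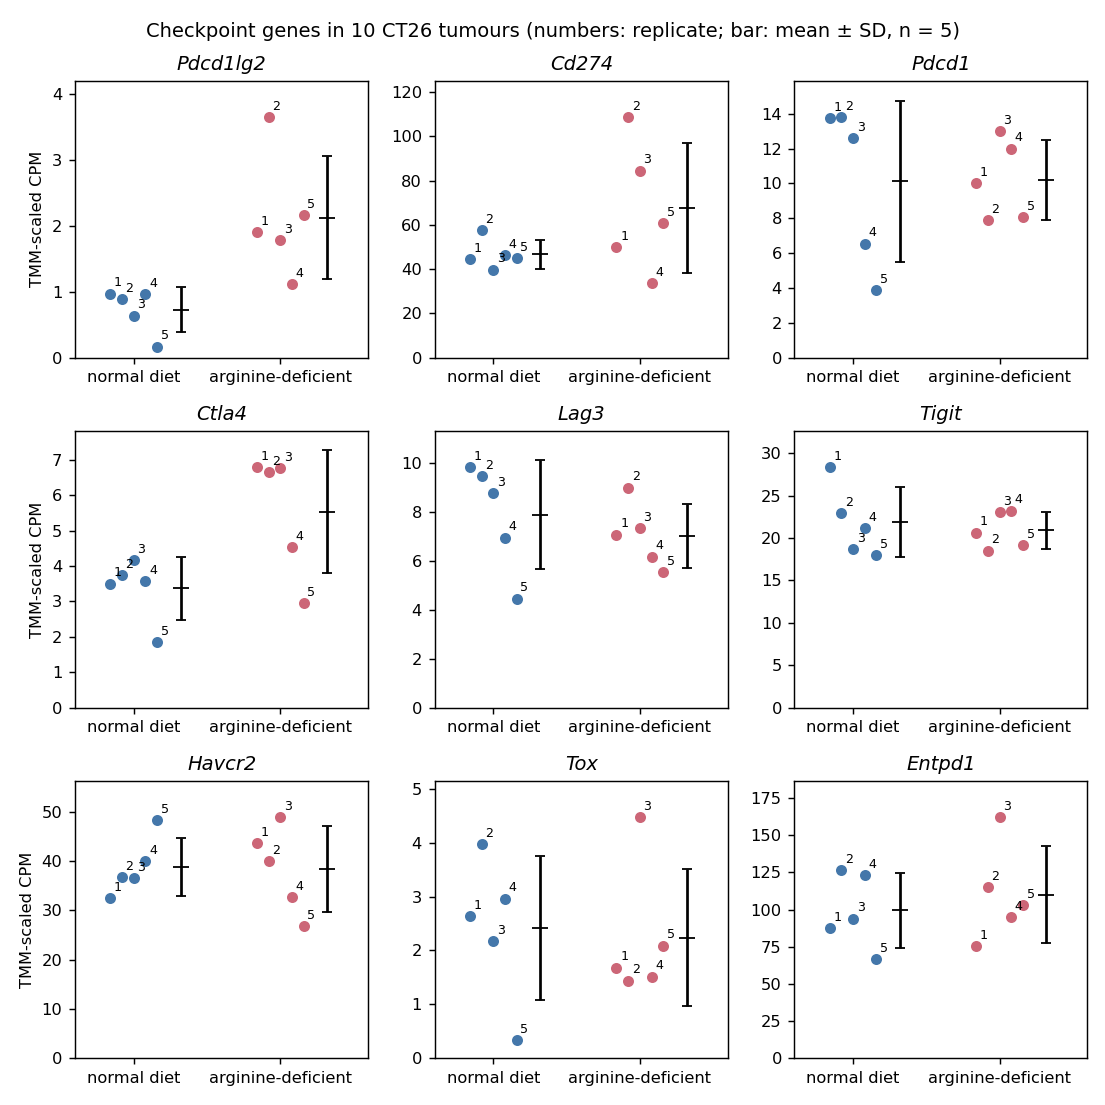
TMM-scaled CPM of 9 checkpoint genes (y axis, each panel from 0) in 5 normal-diet (blue) and 5 arginine-deficient (red) tumours, each point 1 tumour numbered by replicate, black bars mean ± SD. Only in the Pdcd1lg2 panel do the diets not overlap (0.168 to 0.971 and 1.12 to 3.65 CPM), and normal-diet replicate 5 is the lowest point for Pdcd1, Pdcd1lg2, Ctla4, Lag3, Tigit, Tox and Entpd1.

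Pdcd1, the PD-1 receptor gene, averaged 10.2 ± 2.28 CPM on the deficient diet and 10.1 ± 4.61 CPM otherwise (SD, n = 5 each). Normal-diet replicates 1 to 5 had 13.8, 13.8, 12.6, 6.54 and 3.87 CPM, and deficient-diet replicates 1 to 5 had 10.025, 7.91, 12.989, 12.002 and 8.07 CPM. The deficient-diet tumours all lay inside the normal range, and normal-diet replicates 4 and 5 were below them. The log2 fold change was 0.01 (SE 0.32, 95% interval -0.68 to 0.70, edgeR adjusted p = 0.999), an interval that holds differences of either sign. PD-1 and its ligand PD-L1 had a correlation within diets of r = -0.09 over the 10 libraries.

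Ctla4 was low in all tumours. Normal-diet replicates 1 to 5 had 3.51, 3.74, 4.17, 3.58 and 1.85 CPM, and deficient-diet replicates 1 to 5 had 6.79, 6.65, 6.77, 4.53 and 2.96 CPM. Arginine-deficient replicates 1 to 4 lay above the whole normal diet, and replicate 5 lay within it. The means were 5.54 ± 1.73 and 3.37 ± 0.888 CPM (SD, n = 5 each), a log2 fold change of 0.71 (± 0.28 SE, 95% interval 0.10 to 1.32, edgeR adjusted p = 0.647). Limma voom with sample weights gave 0.29 (adjusted p = 0.537), and the 10 edgeR fits without 1 library gave 0.57 to 0.86. Per 100 CPM of Cd3d, Cd3e and Cd3g, Ctla4 had 44.9 ± 17.3 CPM on the deficient diet against 29.7 ± 7.17 CPM, and 3 of 5 deficient-diet tumours exceeded the normal maximum of 38.6. With the T cell level as a term its log2 fold change was 0.57 (SE 0.25, edgeR adjusted p = 0.671).

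CTLA-4 is carried at high level by regulatory T cells, whose defining factor Foxp3 was listed at 0 in all libraries (its exons lie wholly within another gene). The other 4 markers, Il2ra, Ikzf2, Ccr8 and Ikzf4, were split 2 higher and 2 lower. Their mean log2 CPM was 0.89 ± 0.29 on the deficient and 0.77 ± 0.19 on the normal diet (SD, n = 5 each; exact two-sided permutation p = 0.444, adjusted p = 0.872). Cd28 and Icos, which lie beside Ctla4 on chromosome 1 and encode activating receptors, gave 0.70 (SE 0.48) and 0.38 (SE 0.33), with edgeR adjusted p = 0.917 and 0.960.

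For Lag3, Tigit and Havcr2, the remaining inhibitory receptors, differences between diets were within the scatter of the tumours. Lag3 ran from 5.55 to 8.99 CPM on the deficient diet and from 4.46 to 9.82 CPM otherwise, with a log2 fold change of -0.17 (± 0.23 SE, 95% interval -0.66 to 0.32, edgeR adjusted p = 0.996). Tigit averaged 20.9 ± 2.16 CPM on the deficient diet and 21.8 ± 4.13 CPM otherwise (SD, n = 5 each; log2 fold change -0.06 ± 0.15 SE, 95% interval -0.38 to 0.26, edgeR adjusted p = 0.998). Havcr2 ran from 26.8 to 48.9 CPM and from 32.5 to 48.3 CPM (log2 fold change -0.01 ± 0.17 SE, 95% interval -0.38 to 0.35, edgeR adjusted p = 0.998). The deficient-diet tumours of Lag3 and Tigit all lay inside the normal range, and for Havcr2 the deficient-diet range held all normal-diet tumours.

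Tox and Entpd1 varied with a property of the libraries, as did many of the tested genes. Tox had 4 to 123 counts and ran from 1.44 to 4.48 CPM on the deficient diet and from 0.336 to 3.98 CPM otherwise, with a log2 fold change of -0.12 (± 0.49 SE, 95% interval -1.19 to 0.94, edgeR adjusted p = 0.998). Entpd1 was the most abundant of the 9 in CPM, with 75.2 to 162 CPM on the deficient diet and 66.5 to 126 CPM otherwise (log2 fold change 0.15 ± 0.22 SE, 95% interval -0.33 to 0.62, edgeR adjusted p = 0.998). Abundance followed the GC content of transcripts differently in each library, with slopes from -0.53 in arginine-deficient replicate 3 to 0.38 in normal-diet replicate 5 (log2 units per 10 percentage points of GC). Tox and Entpd1 were higher where that slope was lower, beyond the spread of the tumours (adjusted p = 0.00501 and 9.03e-04 by edgeR with diet and slope as terms). The slope, computed from these same libraries, passed for 46.4% of all tested genes and for no other of the 9. It is therefore not particular to Tox and Entpd1. With GC and length slopes as terms the log2 fold changes of Tox and Entpd1 were -0.11 and 0.17, and neither passed. Tox most resembled Depdc7, Fam217b and Cd28 within diets (r = 0.99, 0.98 and 0.97), and Entpd1 resembled Tmem30a, Tmx3 and Fyttd1 (r = 0.99 each), over 10 libraries that differ in that slope.

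Vsir had 0 counts in all 10 libraries, and its exons lie wholly within the body of Cdh23. It is listed at 0, the cause was not tested, and its level and its difference between diets are not known from these counts.

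**Figure D2:**
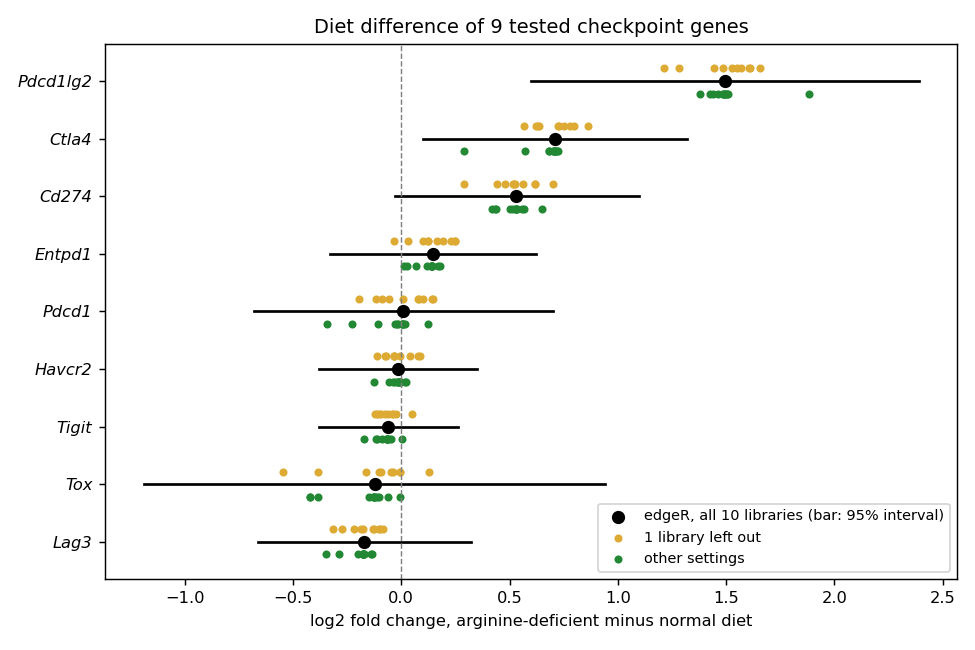
Log2 fold change of arginine-deficient over normal diet (x axis) for the 9 tested genes, with black points and bars the edgeR estimate and its 95% interval, yellow points the 10 fits without 1 library and green points the other settings except that with the IL-4-type macrophage level. Intervals of Pdcd1lg2 and Ctla4 lie above 0, and the yellow and green points of Pdcd1lg2 lie between 1.21 and 1.89. Those of Pdcd1, Havcr2, Tigit, Tox and Entpd1 fall on both sides of 0.

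Levels of different genes were compared per kilobase of exons. The order over all 10 tumours was Tigit at 23.3 ± 3.42, Entpd1 at 18.8 ± 5.02, Cd274 at 15.8 ± 6.33, Havcr2 at 14.2 ± 2.59, Pdcd1 at 5.26 ± 1.78, Lag3 at 3.54 ± 0.841, Ctla4 at 1.91 ± 0.742, Pdcd1lg2 at 0.727 ± 0.506 and Tox at 0.306 ± 0.163 CPM per kb (SD, n = 10). Neighbours in that order differed by more than their SDs added in 2 of 8 cases, Havcr2 over Pdcd1 and Lag3 over Ctla4, both in 10 of 10 tumours. No neighbours among the first 4 were separated by that measure, while every tumour had more Tigit than any had Havcr2 (lowest 19.587 and highest 17.972 CPM per kb). Before scaling to exon length, Tigit RNA exceeded that of Cd3d, Cd3e and Cd3g together in every tumour. Per 100 CPM of these CD3 genes it ranged from 100.48 to 213.49 CPM in deficient-diet tumours. In normal-diet tumours that range was 123.74 to 375.44. Which cells made the Tigit RNA was not measured. PD-L1 exceeded PD-L2 on both diets, at 18.6 against 1.08 CPM per kb on the deficient and 12.9 against 0.371 CPM per kb on the normal diet. These scaled levels use the merged exons of all annotated transcripts, which may be longer than the transcript in use. They also include exonic bases that lie inside other gene bodies.

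**Figure D3:**
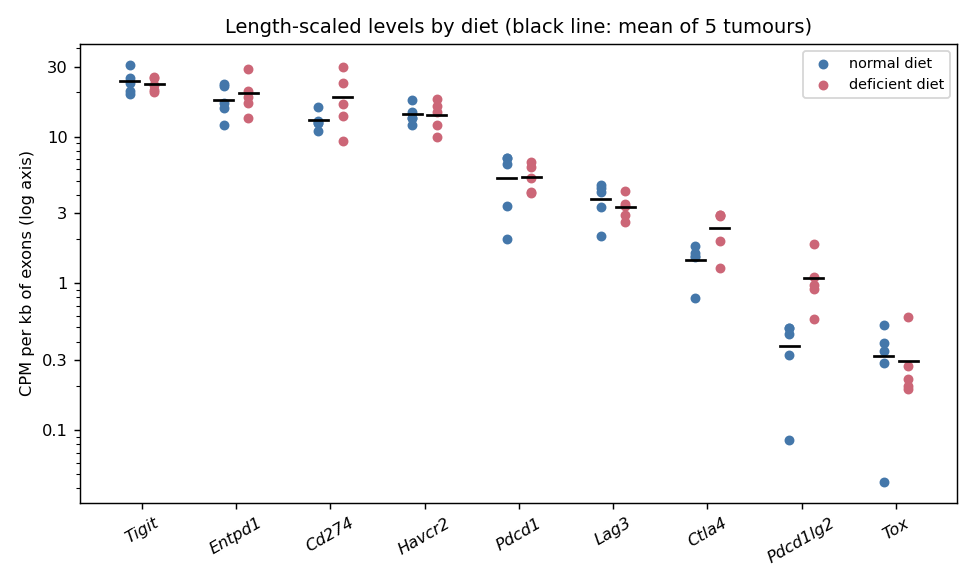
CPM per kilobase of exons (log axis) of the 9 genes with reads, in 5 normal-diet (blue) and 5 deficient-diet (red) tumours per gene, each point 1 tumour and each black line a mean. Tigit, Entpd1, Cd274 and Havcr2 lie at the top, with Tigit wholly above Havcr2, Pdcd1 and Lag3 lie in the middle, and Pdcd1lg2 is the gene whose points separate by diet.

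The genes were next set against the amount of T cell RNA from tumour to tumour. In the edgeR fit with diet and the T cell marker level as terms, Pdcd1 had a slope of 1.17 log2 units per log2 unit of T cell level (SE 0.24, edgeR adjusted p = 0.308), which ranked 7 among all tested genes by p. Tox had a slope of 1.53 (SE 0.48), Lag3 of 0.71 (SE 0.20), Ctla4 of 0.68 (SE 0.30) and Entpd1 of 0.50 (SE 0.22), each with an unadjusted p under 0.05. Pdcd1lg2 had 0.77 (SE 0.54), Cd274 0.32 (SE 0.29) and Tigit 0.25 (SE 0.16), and Havcr2 had -0.10 (SE 0.19). None of the 9 passed over all genes, as 0 of 12929 did. Positive slopes with an unadjusted p under 0.05 were found in 5 of the 9 and in 6.92% of all tested genes. The slopes of Pdcd1 and Lag3 were smaller without the pair of tumours poorest in T cell RNA. Without normal-diet replicates 4 and 5, the farthest from the median level, the slope of Pdcd1 was 0.44 and that of Lag3 0.46, neither with an unadjusted p under 0.05. In the same libraries Tox had 2.11, Cd274 1.59, Entpd1 1.26 and Havcr2 0.82, each with an unadjusted p under 0.05. The share of all tested genes reaching that level in those libraries was not computed. Arginine-deficient replicate 3 and normal-diet replicate 2 had the highest T cell levels (2.47 and 2.33) and the lowest GC slopes (-0.53 and -0.35). Without normal-diet replicate 5 alone, the slope of Pdcd1lg2 was 0.04. That library had the lowest T cell level (0.87), the highest GC slope (0.38) and the smallest total. Normal-diet replicate 4 went the other way, with a low T cell level (1.44) and a GC slope of -0.25. Tox and Entpd1 also followed the GC slope within diets (r = -0.83 and -0.88). The part of the GC slope in the slopes on T cell level was not tested.

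Genes resembling the receptors within diets included T cell genes. By correlation of log2 CPM over the 10 libraries, Pdcd1 was most like Eng, Cd8a and Inpp5d (r = 0.95, 0.93 and 0.92), where Cd8a encodes the coreceptor of CD8 T cells and Inpp5d a lipid phosphatase of blood cells. Lag3 was most like Txk, Il2rb and Itgal (r = 0.92, 0.91 and 0.91), a T cell kinase, an IL-2 receptor chain and an integrin of white blood cells. Havcr2 was most like the mitochondrial genes Vdac2, Tomm20 and Ndufb4 (r = 0.95, 0.93 and 0.93). Ctla4 was most like Fam118a, Cdk19 and Zfp68 (r = 0.95, 0.93 and 0.93), and Pdcd1lg2 like Gm13694, Dpyd and Abtb2 (r = 0.94, 0.92 and 0.91). Tigit was most like Ssx2ip, Faap24 and Pawr (r = 0.91, 0.89 and 0.87). These are the highest of 11475 values for each gene and are given as a description. The macrophage marker level gave no slope with an unadjusted p under 0.05 in any of the 9 genes.

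**Figure D4:**
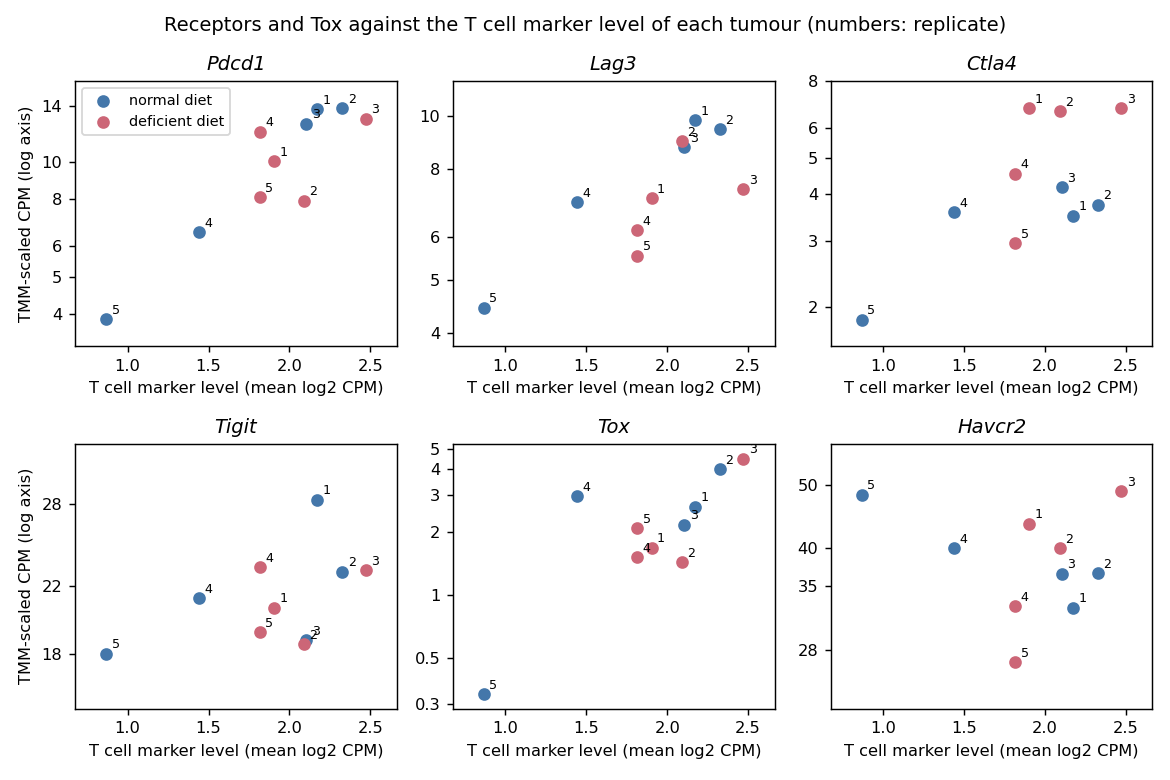
TMM-scaled CPM (log axis) of 5 receptors and Tox against the T cell marker level of the same tumour (mean log2 CPM of 9 genes), blue for the normal and red for the deficient diet, numbered by replicate. Pdcd1 and Lag3 are lowest in normal-diet replicate 5, which has the lowest T cell level (0.87), whereas Havcr2 is near its highest there.

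The other genes of these pathways gave no call. Of 12 other co-inhibitory receptors tested, 5 were higher and 7 lower (median log2 fold change -0.03). Siglece, a sialic acid receptor of myeloid cells, had 5.34 ± 0.882 CPM on the deficient diet and 10.3 ± 5.15 CPM otherwise (SD, n = 5 each, log2 fold change -0.96 ± 0.32 SE, edgeR adjusted p = 0.529). Sirpa, the receptor for CD47, was at 0.23 (SE 0.11) and Cd244a at -0.58 (SE 0.29) on that scale. Of 14 other checkpoint ligands 6 were higher and 8 lower (median -0.02). Pvr, the ligand of TIGIT, had 182 ± 46.5 CPM on the deficient diet and 141 ± 12.2 CPM otherwise (SD, n = 5 each, log2 fold change 0.37 ± 0.16 SE, edgeR adjusted p = 0.718). Cd80, a ligand of CTLA-4, had 0.25 (SE 0.18) and Nectin3 0.47 (SE 0.46). Ceacam1 and H2-T23 were listed at 0 in all libraries. Their exons lie wholly within other gene bodies, the cause was not tested, and their levels are not known from these counts.

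Transcription factors linked to T cell exhaustion were higher in 14 of 17 (median 0.16), where 50.3% of all tested genes were higher. Of the 17, 0 passed by edgeR, adjusted or at an unadjusted p under 0.05. Over the 10 libraries they averaged from 0.629 CPM (Ikzf2) to 170.5 CPM (Bhlhe40), while Cd3d, Cd3e and Cd3g together gave 4.79 to 22.9 CPM. Which cells made this RNA was not measured. Prdm1, which encodes a transcriptional repressor made by effector and exhausted T cells, had 0.27 (SE 0.13). The nuclear receptors Nr4a3 and Nr4a2 had 0.94 (SE 0.53) and 0.23 (SE 0.14). Genes of the interferon gamma pathway were higher in 11 of 16 (median 0.04, none at an unadjusted p under 0.05), where 50.3% of all tested genes were higher. Among them were Stat2 at 0.21 (SE 0.13), Ciita at 0.42 (SE 0.32) and Cxcl9 at 0.34 (SE 0.30). Ifng itself had too few reads to be tested, and Irf8 was listed at 0 in all libraries (its exons lie wholly within other gene bodies). Genes that control the PD-L1 protein were higher in 6 of 10 (median 0.05), led by the glycosyltransferase subunit Stt3a at 0.36 (SE 0.15, edgeR adjusted p = 0.688), then Spop at -0.13 (SE 0.10) and Cop1 at 0.19 (SE 0.16).

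Kinases, phosphatases and adaptors of receptor signalling were split 6 and 6 (median 0.00), with Zap70 at 0.32 (SE 0.24), Lck at 0.17 (SE 0.19) and Fyn at 0.09 (SE 0.11). Genes of the adenosine pathway, in which CD39 acts, were split 5 and 5 (median -0.01). Entpd7 had 0.23 (SE 0.13), Entpd5 0.25 (SE 0.15) and the adenosine receptor gene Adora2a -0.60 (SE 0.47). The co-stimulatory receptors tested were higher in 5 of 5 (median 0.38), where 50.3% of all tested genes were higher. None of the 5 had an unadjusted p under 0.05 by edgeR, among them Cd2 at 0.44 (SE 0.28). Tnfrsf18 and Cd27 were listed at 0 in all libraries, with exons wholly within other gene bodies, so their levels are not known from these counts. The T cell marker level was 2.02 ± 0.28 on the deficient and 1.78 ± 0.61 on the normal diet (mean log2 CPM ± SD, n = 5 each; exact two-sided permutation p = 0.484, adjusted p = 0.872), and the CD8 T cell level 3.67 ± 0.31 and 3.62 ± 0.64 (exact two-sided permutation p = 0.913, adjusted p = 0.913).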

How the data were processed

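Total RNA from 10 tumours was read on an Illumina platform, as the labels' protocols state. Values deposited by the authors are raw read counts for each gene, which per the submitters' processing notes came from FastQC, STAR and featureCounts on mm10, with versions and settings not given in the sources used here. Counts were tested as deposited with edgeR 4.0.16 (R 4.3.3), by the quasi-likelihood F test with TMM factors, filterByExpr defaults (minimum count 10, minimum total 15), diet as the only term and Benjamini-Hochberg adjustment over 12929 genes. The filter kept 99.9% of counts. Each standard error was obtained by dividing the log2 fold change by the root of its F statistic. Symbols, positions and exonic lengths came from GENCODE M21, which matched 21379 identifiers with their version, 437 with another version and left 33 without a symbol. Titles reading Arg and Control were taken as the arginine-deficient and normal diets, and columns were matched through the number in each description. Log2 CPM used a prior count of 2. All pairs of libraries differed beyond sampling noise (lowest chi-square per degree of freedom 16.7). The labels do not state that each tumour is from a different mouse, so p-values measure the spread between these samples.

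The genes, the 21 other gene lists and the tests were chosen with earlier results of these data known. Named genes were all 10, the 3 of smallest p in each of 8 pathway lists, and for each gene the 3 of at least 2 CPM with the highest r. Alternatives were other size factors, other filters, DESeq2 1.42.0, limma 3.58.1 voom with weighted samples, leaving out single libraries, a block for the replicate number, 3 muscle-rich libraries left aside, marker levels or GC and length slopes as terms, and thinning to the smallest total. Of the T cell marker list, 1 gene is not reported here by name. The scripts were tested on simulated data.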

Additional observations from a re-analysis of the deposited data

Results flagged for a closer look

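In 2 of 18 sets of 5 tumours (9 genes, each on 2 diets) 1 tumour stood far from the other 4, its gap to the nearest exceeding 0.71 of the range. About 1 in 20 such sets is flagged by chance. Ctla4 was at 1.85 CPM in normal-diet replicate 5, against 3.51 CPM in the next lowest tumour of that diet. That library also had the smallest total, 12013178 counts, and the lowest T cell marker level, 0.87. Tox was at 4.48 CPM in arginine-deficient replicate 3, against 2.09 CPM in the next highest tumour of that diet. That library had the most mitochondrial counts (9.97%), the highest T cell marker level (2.47) and the lowest GC slope (-0.53). The part of these properties in the values was not tested.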

How the results depend on the processing

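The number of genes passing over the whole table moved from 7 to 130 with DESeq2, 373 with limma voom, 156 with GC and length slopes as terms, 18 with the muscle-rich libraries left aside, 12 with the T cell level and 1 with a replicate block. It ranged from 0 to 16 over the fits without 1 library: 16 without arginine-deficient replicate 3, 15 without normal-diet replicate 5, 2 when the library removed was replicate 1, 2 or 5 of the deficient or 2 of the normal diet, and 0 by edgeR without normal-diet replicate 1 or 3 (787 and 568 at an unadjusted p under 0.05). With the IL-4-type macrophage level as a term, added after the data were seen, it was 0 by edgeR (1788 at an unadjusted p under 0.05). Of the 9 checkpoint genes 1 passed with DESeq2 and 1 with limma voom, Pdcd1lg2 both times, and 0 in each fit without 1 library. The cause of these moves was not tested.

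The sign of Pdcd1 turned with upper quartile factors (-0.0203), limma voom (-0.23), muscle-rich libraries left aside (-0.35), the T cell level (-0.11), GC and length slopes (-0.0170) and thinning (-0.0303), and ranged from -0.19 to 0.15 without 1 library. Havcr2 turned with the T cell level (0.0212), GC and length slopes (0.0184) and thinning (0.00023), and ranged from -0.11 to 0.0864 without 1 library. Tigit turned with limma voom (0.0014) and ranged from -0.12 to 0.0476. Tox ranged from -0.55 to 0.13 and Entpd1 from -0.0318 to 0.25 without 1 library. With the IL-4-type level, Lag3 had 0.33 and Tox 1.26, which turned their sign, and Pdcd1lg2 had 2.38, Ctla4 1.37, Pdcd1 0.77 and Entpd1 0.69, none passing over all genes. Cd274, Pdcd1lg2 and Ctla4 kept their sign in all 23 alternatives, and Lag3 in 22 of 23. By the median over the list, the CD8 T cell, macrophage and fibroblast levels turned (-0.0611, -0.0276 and 0.0428), and the epithelial level moved from 0.09 to 0.60 (exact permutation p = 0.0238, adjusted p = 0.310). Without 1 library these ranged from -0.22 to 0.19, -0.0523 to 0.0618 and -0.27 to 0.0429, the B cell level from -0.26 to 0.0607, the neutrophil level from -0.21 to 0.0051, the epithelial level from -0.0034 to 0.29 and the muscle level from -0.10 to 2.77.

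The replicate numbers are not stated to pair the tumours. Same-numbered deviations correlated at -0.35 to 0.18, and 1 of 5 deficient-diet libraries was closest to its own number, values that cannot exclude a pairing. With the replicate block Pdcd1lg2 had 1.49 (edgeR adjusted p = 0.889). Depth limits Pdcd1lg2 and Tox most, with as few as 2 and 4 counts in a library.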

Other observations

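Within diets, the genes that varied together most over the 10 tumours were Ctla4 with Lag3 (r = 0.82), Pdcd1lg2 with Lag3 (r = 0.80), Tox with Entpd1 (r = 0.79) and Pdcd1 with Lag3 (r = 0.78). Havcr2 stood at the other end, with r of -0.31 against Pdcd1 and -0.30 against Pdcd1lg2. The ligands Cd274 and Pdcd1lg2 had r of 0.52. These 36 pairs share the same libraries, and the values are a description.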
